A study of Mus musculus with 12 samples.

Results

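The 7 genes described here encode the subunits of mouse MHC class I molecules: the light chain *B2m*, the classical heavy chains *H2-D1* and *H2-K1*, and the non-classical heavy chains *H2-T22*, *H2-T23*, *H2-M3* and *H2-Q4*. They were taken by name, all 7 were found among the 23022 genes listed, and 6 passed the filter of at least 1 TPM (a transcript level normalised for length and library size) in at least 3 libraries. *H2-M3* did not pass and is described by its values alone. RNA-seq was done on 12 libraries of B16-F10 cells, a mouse melanoma line of the C57BL/6 strain, with 3 libraries in each of 4 conditions. The cells were either NTC, given a non-targeting guide pair and written in the labels as "No template control", or *Mbnl* DKO, given guides against the RNA-binding protein genes *Mbnl1* and *Mbnl2*, and each genotype was left unstimulated or treated with interferon gamma (IFNγ). All 4 conditions share the Cas9-expressing parent line and the lentiviral guide vector with its selection, so the NTC cells are infected controls and not the unmodified line. The DKO cells were used as an infected pool, and transcripts of the targeted genes remained detectable.

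An MHC class I molecule is a heavy chain held together with β2-microglobulin, the product of *B2m*, and a short peptide taken mostly from proteins made inside the cell. Classical heavy chains show these peptides to CD8+ T cells, and a tumor cell without them escapes that recognition. Non-classical chains have narrower tasks: Qa-1, the product of *H2-T23*, is read by the NKG2A receptor of natural killer cells, the product of *H2-M3* presents formylated peptides, and that of *H2-T22* is bound by some γδ T cells. IFNγ acts through a receptor with JAK kinases, and its signal raises the transcription factor IRF1 and the class I transactivator NLRC5. The question the design puts to these genes is how far the light chain and each heavy chain follow IFNγ, and whether *Mbnl* loss goes with a different level or a different response.

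*B2m* (ENSMUSG00000060802) lies on chromosome 2, at 122147686 to 122153083 on the plus strand of GRCm38, and the 6 heavy chain genes lie in the H2 complex on chromosome 17. In GENCODE M21, *H2-D1* (ENSMUSG00000073411) runs from 35262730 to 35267499 on the plus strand and *H2-K1* (ENSMUSG00000061232) from 33996017 to 34000347 on the minus strand. *H2-T22* (ENSMUSG00000056116) and *H2-T23* (ENSMUSG00000067212) are neighbours on the minus strand, at 36037128 to 36042747 and 36029773 to 36032855. *H2-Q4* (ENSMUSG00000035929) and *H2-M3* (ENSMUSG00000016206) are on the plus strand, at 35379617 to 35385290 and 37270220 to 37274484.

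Interferon-stimulated class I promoters carry a binding element for interferon regulatory factors (IRF), and the sequence around each member's start was therefore examined. RefSeq (GRCm38.p6) listed 2 starts for *H2-K1* and for *H2-T23*. The start furthest upstream was used, and positions are counted from it. In the 250 bases before the RefSeq start, all 7 members held the letters AANNGAAA on one strand or the other. Of 32851 promoters of that length, 21.3% did. The windows of 30 bases around these matches are shown because they set the members side by side, each read 5′ to 3′ on the gene's own strand, with the matched letters in capitals (on the opposite strand in every member but *B2m*).
B2m, chr2:122147539-122147568, plus strand: taagaacatgaAACTGAAAatgggaaagtc
H2-D1, chr17:35262933-35262962, plus strand: catctcctcagTTTCACTTctgcacctaac
H2-K1, chr17:34000419-34000448, minus strand: catctccacagTTTCACTTctgcacctaac
H2-Q4, chr17:35379453-35379482, plus strand: catctccccagTTTCACTTctgctcctaac
H2-T22, chr17:36042915-36042944, minus strand: aattggcttagTTTCACTTtcgaatcccca
H2-M3, chr17:37270122-37270151, plus strand: ttcctctgaggTTTCACTTctctgtaactc
H2-T23, first match, chr17:36032807-36032836, minus strand: gatcctactgcTTTCTCTTtcataaagaca
H2-T23, second match, chr17:36032764-36032793, minus strand: ctcaattctcaTTTCTGTTggacgcctagt
The window of *H2-K1* had the same base as that of *H2-D1* at 29 of 30 positions and that of *H2-Q4* at 28. The windows of *H2-T22* and *H2-M3* matched it at 17 and 15, while both windows of *H2-T23* matched it at 12. The matched letters themselves were the same in the 5 heavy chains other than *H2-T23*, and differed from these in *B2m* and in both matches of *H2-T23*. The match began 137 bases before the start in *B2m*, 150 in *H2-D1*, 90 in *H2-K1*, 153 in *H2-Q4*, 191 in *H2-T22* and 101 in *H2-M3*, and 124 and 81 bases before it in *H2-T23*.

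Other motifs of class I promoters were searched for in the same windows, on both strands. The NF-κB consensus and the letters TGACG, the core of a CREB and ATF site, were each found in 6 members and in neither case in *H2-T23*, against 3.9% and 17.8% of all promoters. In the 5 heavy chains that held both, the NF-κB match lay upstream of the IRF match, and in *B2m* it lay downstream of it. CCAAT, the letters bound by NF-Y, was found in all 7 members and in 33.8% of all promoters. A match is a match of letters and not a bound site. Some windows lie within exons that GENCODE annotates on the same strand. This holds for all 250 bases in *H2-D1*, 154 in *H2-T23*, 14 in *H2-M3*, 5 in *H2-T22* and 1 in *B2m*. Both IRF matches of *H2-T23* lie inside its annotated span, which ends at 36032855. Whether the motifs missing from *H2-T23* depend on the start used was not tested. The whole 250 bases are printed for the light chain, for a classical chain and for the non-classical chain with the largest response to IFNγ, with the IRF match in capitals.
B2m, chr2:122147437-122147686, plus strand: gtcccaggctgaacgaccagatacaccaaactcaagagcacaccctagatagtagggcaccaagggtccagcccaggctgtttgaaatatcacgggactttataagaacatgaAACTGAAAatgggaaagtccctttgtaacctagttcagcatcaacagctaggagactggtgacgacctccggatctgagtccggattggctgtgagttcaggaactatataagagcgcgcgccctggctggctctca
H2-K1, chr17:34000348-34000597, minus strand: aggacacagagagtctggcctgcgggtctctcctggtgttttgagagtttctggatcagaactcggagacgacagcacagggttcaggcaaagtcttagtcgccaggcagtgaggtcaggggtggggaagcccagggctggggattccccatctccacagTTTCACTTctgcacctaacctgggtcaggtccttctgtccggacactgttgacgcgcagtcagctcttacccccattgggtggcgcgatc
H2-T22, chr17:36042743-36042992, minus strand: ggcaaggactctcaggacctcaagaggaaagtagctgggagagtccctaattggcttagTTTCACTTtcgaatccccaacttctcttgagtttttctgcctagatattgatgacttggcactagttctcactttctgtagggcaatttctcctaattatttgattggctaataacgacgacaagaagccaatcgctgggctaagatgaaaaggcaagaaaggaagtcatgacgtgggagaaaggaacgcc

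**Figure D1:**
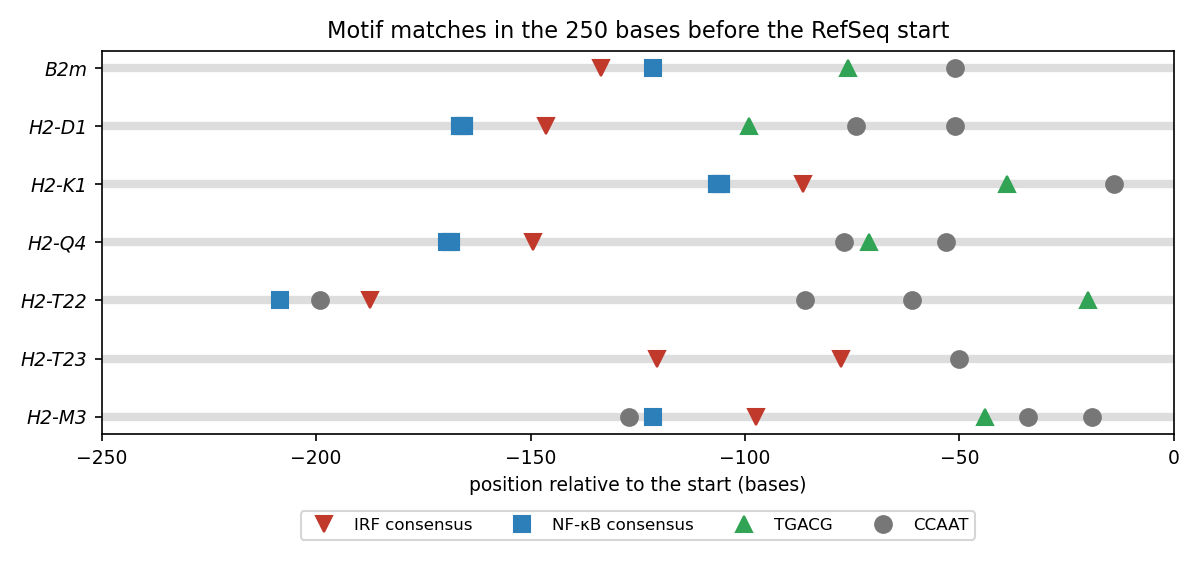
Position of each motif match in the 250 bases before the RefSeq start of the 7 members (x axis, bases from the start; 1 line per gene, 1 mark per match, coloured by motif). An IRF match is present on every line, and *H2-T23* has no NF-κB and no TGACG match in the window used.

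The listed genes of a library summed to between 805782 and 874612 TPM, lower in DKO libraries (805782 to 827191) than in NTC libraries (844185 to 874612). TPM keep no count of reads, so the depth of a library is not known from these values and precision was taken from the spread among the 3 libraries. The labels do not say whether the 3 libraries of a condition came from separate cultures, so p-values measure only the spread among these samples. The 7 melanocyte markers were all measured and summed to 16647 to 18643 TPM in NTC and 11124 to 12414 TPM in DKO libraries. Markers of leukocytes summed to 1.85 to 6.83 TPM, with *Ptprc*, *Cd3e* and *Nkg7* at 0 in every library, and most of the rest was *Cd68*. *Cd68* was higher in DKO than NTC cells, by 0.45 without and 1.10 with IFNγ on the log2 scale. Within DKO cells it was higher with IFNγ by 0.83. Markers of fibroblasts (1.63 to 4.24 TPM) and endothelium (at most 0.914 TPM) were low, and *Krt5*, *Krt14* and *Epcam* were at 0. The 2 fibroblast markers tested were higher in DKO than NTC cells, *Col1a1* by 0.40 and *Col1a2* by 0.36 without IFNγ and by 0.67 and 0.58 with it, and *Dcn* and *Lum* were at 0 throughout. Of all genes tested, 36.4% were called between the genotypes in either direction without IFNγ and 43.3% with it. The part of these markers in the class I values was not tested. *Mbnl1* was lower in DKO than NTC cells by 0.41 without and 0.47 with IFNγ on the log2 scale, and *Mbnl2* by 0.20 and 0.23. A small insertion or deletion at a guide's cut site need not remove the transcript, so these values check the labels only in their direction.

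*B2m* was the most abundant member in every condition, followed by *H2-D1* and *H2-K1*, and the non-classical chains were lower still. In untreated NTC cells *B2m* stood at 325, 294 and 314 TPM, *H2-D1* at 64.3, 62.6 and 64.9 TPM and *H2-K1* at 60.6, 56.9 and 60.9 TPM. The libraries of the 2 classical genes did not overlap, though their means of 63.9 ± 1.21 and 59.5 ± 2.20 TPM (SD, n = 3) were close. *H2-Q4*, which encodes the non-classical chain Qb-1, was at 13.7, 14.8 and 15.6 TPM and *H2-T22* at 13.6, 12.9 and 15.2 TPM, so these 2 neighbours in the order overlapped. *H2-T23* was lower than both, at 9.76, 6.60 and 7.63 TPM. *H2-M3* was barely detected, with 0.160, 0.323 and 0.158 TPM in untreated NTC cells, 0.227 to 0.249 TPM in treated NTC cells and 0.149 to 0.244 TPM in treated DKO cells, and it was listed at 0 in all 3 untreated DKO libraries.

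**Figure D2:**
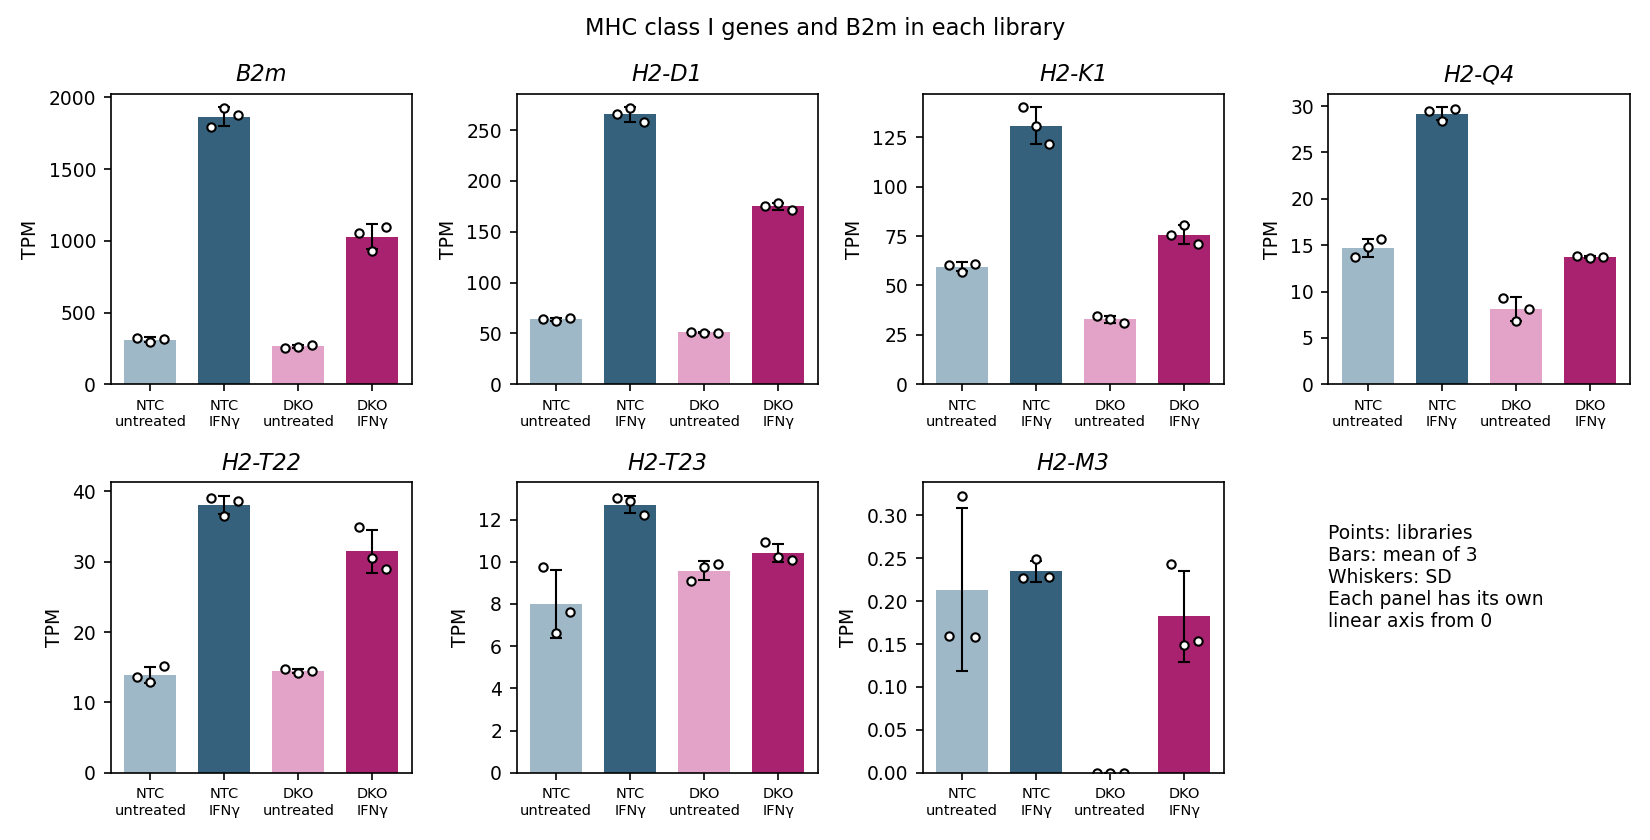
TPM of each member in the 12 libraries (1 panel per gene, y axis in TPM, points are single libraries, bars are means of 3 libraries per condition). *B2m*, *H2-D1*, *H2-K1*, *H2-T22* and *H2-Q4* rose with IFNγ in both genotypes, and *H2-M3* stayed below 1 TPM.

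The order of the 3 most abundant members was the same in all 4 conditions, but that of the non-classical chains was not. With IFNγ it was *H2-T22*, *H2-Q4* and *H2-T23* in both genotypes, with no overlap between neighbours. In untreated DKO cells *H2-T22* led with 14.2 to 14.8 TPM, and *H2-T23* (9.08 to 9.91 TPM) and *H2-Q4* (6.77 to 9.34 TPM) overlapped. Some of these levels rest on shared sequence. Of the 50-base windows in a gene's transcripts, 53.5% in *H2-T22* were also found in transcripts of another gene, mostly *H2-T10*, as were 36.4% in *H2-Q4*, 14.5% in *H2-T23*, 12.8% in *H2-D1* and 9.63% in *H2-K1*, but 0.576% in *H2-M3* and 0 in *B2m*. How the read assignment divided such windows between genes was not tested, and *H2-T10* itself stood at 0.78 to 0.98 TPM. The libraries were unstranded, so reads of an overlapping gene on the other strand cannot be told apart. *B2m* overlaps *Patl2*, which reached at most 0.131 TPM. *H2-T22* and *H2-T23* overlap *A930015D03Rik* and *H2-Q4* overlaps *Gm11131*, and the levels of these 2 genes are not known from the values used here.

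IFNγ raised all 6 tested members in NTC cells, the light chain most and *H2-T23* least. *B2m* rose from 311 ± 15.3 to 1865 ± 65.6 TPM (SD, n = 3), with 1794, 1924 and 1877 TPM in the treated libraries. That was a 6.00-fold ratio of means and a log2 difference, on the scale of log2(TPM + 1), of 2.58 ± 0.058 (SE), the third largest rise among 11663 genes tested (limma, Benjamini-Hochberg adjusted p = 4.13e-12). *H2-D1* rose 4.15-fold to 266, 272 and 258 TPM (log2 difference 2.04 ± 0.037, adjusted p = 4.82e-13). The other classical chain, *H2-K1*, rose 2.20-fold to 140, 131 and 121 TPM (1.12 ± 0.0627, adjusted p = 6.25e-08). Every treated library was thus above every untreated one for these 3 genes, and the 2 classical chains, near-equal before treatment, no longer were.

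The non-classical chains rose less, with 1 exception. *H2-T22* reached 39.0, 36.6 and 38.6 TPM, a 2.74-fold rise (log2 difference 1.39 ± 0.0723, adjusted p = 2.64e-08), against 2.20-fold for the classical *H2-K1*, a difference between genes that was not tested. *H2-Q4* reached 29.4, 28.4 and 29.7 TPM, a 1.98-fold rise (0.94 ± 0.0862, adjusted p = 1.53e-05). *H2-T23* reached 13.0, 12.9 and 12.2 TPM, a 1.59-fold rise (0.62 ± 0.10, adjusted p = 0.00317). No treated library of these 3 genes overlapped an untreated one. The calls stand at 6 of 6 members tested, where 7.31% of all genes tested were called higher. Libraries did not overlap, with the treated ones higher, in 21.8% of all genes. The median log2 difference was 1.26 over the members and 0.019 over all genes tested. *H2-M3* was at 0.227, 0.249 and 0.228 TPM with IFNγ, within the range of the untreated libraries. The whole-table count behind that share leaned on single libraries, since 1411 genes were called in either direction, but 317 to 394 in each of the 4 fits without untreated or treated NTC replicate 2 or 3, and 60.5% of those called were higher, against 45.1% when libraries were scaled to the same total. None of the 6 member calls was lost under any alternative tried.

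In DKO cells IFNγ raised 5 of the 6 tested members. *B2m* rose from 256, 263 and 276 TPM to 1057, 933 and 1097 TPM, a 3.88-fold ratio of means (log2 difference 1.95 ± 0.058, limma adjusted p = 8.32e-11). *H2-D1* went from 51.6, 50.7 and 50.5 TPM to 175, 179 and 171 TPM, a 3.43-fold rise (1.76 ± 0.037, adjusted p = 3.37e-12). *H2-K1* went from 34.6, 33.0 and 31.04 TPM to 75.6, 80.5 and 70.8 TPM, a 2.30-fold rise (1.18 ± 0.0627, adjusted p = 4.83e-08). All treated libraries lay above all untreated ones for these 3 genes. *H2-T22* reached 34.9, 30.5 and 29.0 TPM, 2.18-fold above its untreated level (1.07, adjusted p = 5.96e-07), and *H2-Q4* reached 13.8, 13.7 and 13.8 TPM, 1.70-fold above it (0.71, adjusted p = 0.000412). *H2-T23* stood at 9.08, 9.74 and 9.91 TPM without and 10.915, 10.235 and 10.102 TPM with IFNγ. These groups did not overlap, but the log2 difference of 0.11 (95% interval -0.11 to 0.33) did not pass the test (adjusted p = 0.783).

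The DKO calls read against a small background: 0.677% of all genes were called higher with IFNγ in DKO cells, and libraries did not overlap in that direction in 9.46%. The median log2 difference was 1.12 over the members and 0.0081 over all genes tested. *H2-M3* was listed at 0 in the 3 untreated libraries and at 0.244, 0.149 and 0.153 TPM in the treated ones, and no fold is given.

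**Figure D3:**
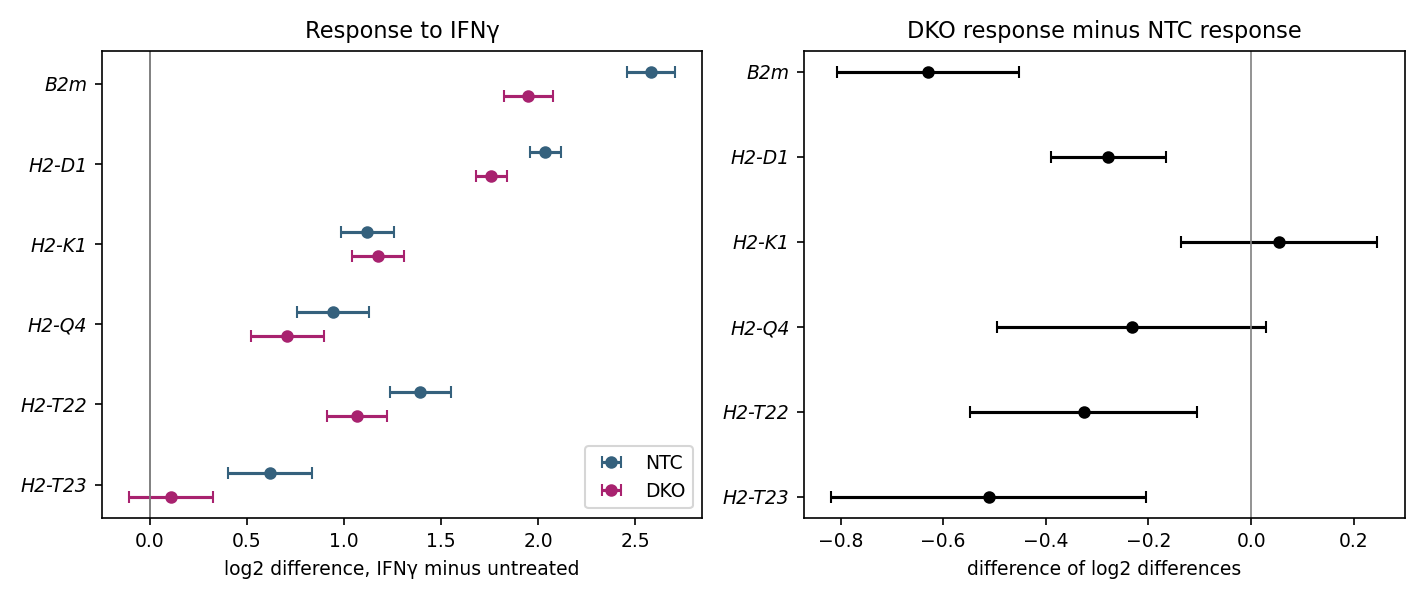
Log2 difference of log2(TPM + 1) between IFNγ-treated and untreated cells for the 6 tested members, in NTC and DKO cells (points, with 95% limma intervals as whiskers, n = 3 libraries per condition). *B2m* and *H2-D1* have the largest values in both genotypes, the 2 intervals of *H2-K1* overlap, and the DKO interval of *H2-T23* includes 0.

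Whether the response itself differed between the genotypes was tested as the DKO log2 difference minus the NTC one. *B2m* was the only member past the threshold, with a response smaller in DKO cells by -0.63 ± 0.0821 on the log2 scale (95% interval -0.81 to -0.45, limma adjusted p = 0.0256). The call covers 1 of 6 members, where 0.0257% of all genes tested were called lower, 0.00857% higher and 0.0343% in either direction. It depends on the libraries used, as it was kept in 4 of 12 fits that left out 1 library each, with differences from -0.68 to -0.56 and adjusted p from 0.0185 to 0.096. The 8 fits that lost it were those without untreated NTC replicate 1, 2 or 3, treated NTC replicate 2 or 3, untreated DKO replicate 2 or 3, and treated DKO replicate 1.

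The other members did not pass this test, and their intervals differ in what they leave possible. *H2-D1* had a difference of -0.28 (95% interval, not adjusted for the number of genes, -0.39 to -0.17, adjusted p = 0.123), *H2-T22* of -0.33 (-0.55 to -0.11, adjusted p = 0.364) and *H2-T23* of -0.51 (-0.82 to -0.21, adjusted p = 0.364). Each of these single-gene intervals lay below 0. That of *H2-Q4* ran from -0.50 to 0.03 around -0.23 (adjusted p = 0.469). *H2-K1* had the value nearest 0, at 0.05 with an interval from -0.14 to 0.25 (adjusted p = 0.828), so a response smaller in DKO cells by more than 0.14 lay outside it. The median over the members was -0.30, and over all genes tested -0.0063.

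Compared directly, DKO cells had less of 4 members than NTC cells before any IFNγ was given. *H2-K1* and *H2-Q4* differed most. *H2-K1* stood at 60.6, 56.9 and 60.9 TPM in NTC cells, against 34.6, 33.0 and 31.04 TPM in DKO cells, 0.553 of the NTC mean (log2 difference -0.84 ± 0.0627, limma adjusted p = 5.11e-07). *H2-Q4* was at 9.34, 6.77 and 8.10 TPM in DKO cells, 0.548 of the NTC mean (-0.80 ± 0.0862, adjusted p = 1.19e-05). *H2-D1*, at 0.797 of it (-0.32 ± 0.037, adjusted p = 2.07e-05), and *B2m*, at 0.852 of it (-0.23 ± 0.058, adjusted p = 0.00715), differed less. No DKO library of these 4 genes overlapped an NTC library.

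The products of the T region did not share this difference. *H2-T22* was at 14.8, 14.2 and 14.4 TPM in untreated DKO cells, within the NTC range (log2 difference 0.06, 95% interval -0.10 to 0.21, adjusted p = 0.566). *H2-T23* was at 9.08 to 9.91 TPM, overlapping the NTC range of 6.60 to 9.76 TPM (0.25, 0.03 to 0.46, adjusted p = 0.0701), and the value without untreated NTC replicate 1 was 0.38 (adjusted p = 0.00283). A count of 4 of 6 members lower stands beside 19.4% of all genes tested called lower and 36.4% called in either direction, and groups did not overlap in the lower direction in 26.8%. The median was -0.28 over the members and -0.0055 over all genes. Of all called genes 46.7% were higher in DKO cells, against 60.7% when libraries were scaled to the same total, and the 4 member calls were kept in both.

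With IFNγ all 6 tested members were lower in DKO than in NTC cells, and no DKO library overlapped an NTC library. *H2-Q4* was furthest below, at 0.471 of the NTC mean (log2 difference -1.03 ± 0.0862, limma adjusted p = 1.21e-06). *B2m* was at 0.552 of it (-0.86 ± 0.058, adjusted p = 1.93e-07), *H2-K1* at 0.578 (-0.78 ± 0.0627, adjusted p = 8.79e-07) and *H2-D1* at 0.659 (-0.60 ± 0.037, adjusted p = 9.08e-08). *H2-T22*, at 0.828 (-0.27, adjusted p = 0.00903), and *H2-T23*, at 0.820 (-0.26, adjusted p = 0.0478), were nearest to NTC. The call of *H2-T23* was lost in 16 of 20 alternatives, with adjusted p from 0.00877 to 0.143, and of the 12 fits without 1 library it was kept only in those without untreated NTC replicate 1 or 2, and that of *H2-T22* was lost when libraries were scaled to the same total (-0.18, adjusted p = 0.0538). The background was large here too: 23.9% of all genes tested were called lower and 43.3% in either direction, and groups did not overlap in the lower direction in 27.2%. The median was -0.69 over the members and -0.013 over all genes, of whose calls 44.9% were higher, or 65.3% with libraries scaled to the same total.

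The 2 genotype comparisons, set side by side, show members with unlike courses. In *H2-K1* the log2 difference was -0.84 without and -0.78 with IFNγ, about equal. In *B2m* it was -0.23 without and -0.86 with IFNγ, and in *H2-D1* -0.32 and -0.60. In *H2-T22* and *H2-T23* it was 0.06 and 0.25 without IFNγ, neither called, and -0.27 and -0.26 with it. The test of that change is the test of the difference in response, which *B2m* alone passed. The melanocyte markers were lower in DKO cells as well, 7 of 7 called without and 6 of 7 with IFNγ. Of all genes tested, 19.4% and 23.9% were called lower. The median log2 differences of the markers were -0.53 and -0.57, against -0.0055 and -0.013 over all genes. The part of these differences in the class I values was not tested. In bulk RNA, fewer cells expressing a gene and less RNA per cell cannot be told apart.

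**Figure D4:**
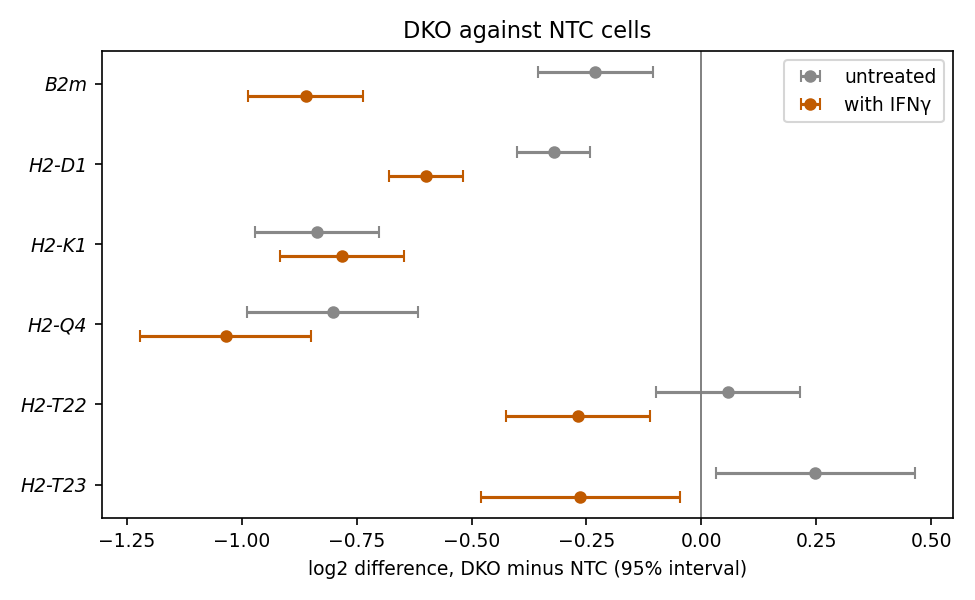
Log2 difference of log2(TPM + 1) between DKO and NTC cells for the 6 tested members, without and with IFNγ (points, with 95% limma intervals as whiskers, n = 3 libraries per condition). *H2-K1* sits near -0.8 in both, *B2m* moves from -0.23 to -0.86, and *H2-T22* and *H2-T23* move from above to below 0.

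The heavy chain pool was made mostly of the classical chains, and more so with IFNγ. The 6 heavy chains summed to 160 TPM in untreated NTC, 476 TPM in treated NTC, 116 TPM in untreated DKO and 306 TPM in treated DKO cells. *H2-D1* and *H2-K1* made up 77.0%, 83.2%, 72.3% and 81.8% of these sums. *H2-D1* alone brought 63.7% of the 316 TPM by which the sum was higher with IFNγ in NTC cells and 65.1% of the 190 TPM in DKO cells, and *H2-K1* brought 22.5% in each. The difference between DKO and NTC cells was divided otherwise: without IFNγ *H2-K1* accounted for 60.1% of a difference of -44.3 TPM and *H2-D1* for 29.3%, and with IFNγ *H2-D1* accounted for 53.3% of -170 TPM and *H2-K1* for 32.4%.

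As ratios of summed TPM, classical to non-classical chains stood at 3.36 ± 0.0985 in untreated NTC and 4.94 ± 0.230 in treated NTC cells, and at 2.61 ± 0.109 and 4.50 ± 0.284 in untreated and treated DKO cells (SD, n = 3). Every treated library was above every untreated one in each genotype, by 0.56 (NTC) and 0.78 (DKO) on the log2 scale, where the SD between replicates was 0.0678. Untreated DKO libraries all lay below untreated NTC libraries (-0.36), while with IFNγ the genotypes overlapped (-0.14, or -0.28 with a mean of log2(TPM + 1) over genes in place of the sum). The same ratio taken within the classical chains, *H2-D1* over *H2-K1*, was 1.08 ± 0.0207 and 2.04 ± 0.121 in NTC cells and 1.55 ± 0.0689 and 2.32 ± 0.0981 in DKO cells, so that untreated DKO cells lay between the untreated and the treated NTC cells. The share of *H2-T22* in the heavy chains was 8.66% and 7.99% in NTC and 12.5% and 10.28% in DKO cells, and that of *H2-T23* 4.98% and 2.67% in NTC and 8.27% and 3.40% in DKO cells. No test was run on any of these ratios, and with 3 against 3 libraries an exact permutation test could not have given a p below 0.1.

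The transcripts of the light chain outnumbered those of all heavy chains in every library. *B2m* stood at 1.94 ± 0.0532 times the summed heavy chains in untreated NTC and 3.92 ± 0.211 times in treated NTC cells, and at 2.29 ± 0.140 and 3.37 ± 0.376 times in untreated and treated DKO cells (SD, n = 3). With IFNγ it was higher by 1.01 on the log2 scale in NTC and by 0.55 in DKO cells, without overlap between treated and untreated libraries, and the SD between replicates was 0.103. The value in DKO cells minus that in NTC cells was -0.46. With a mean of log2(TPM + 1) over the heavy chains in place of their sum, the same 2 values were 1.56 and 1.11. Untreated DKO libraries were all above untreated NTC libraries (0.23, or 0.091 with the mean of logs), whereas with IFNγ the treated DKO libraries, at 3.40, 2.97 and 3.72, overlapped the treated NTC ones, at 3.68 to 4.08 (-0.22, or -0.36 with the mean of logs).

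**Figure D5:**
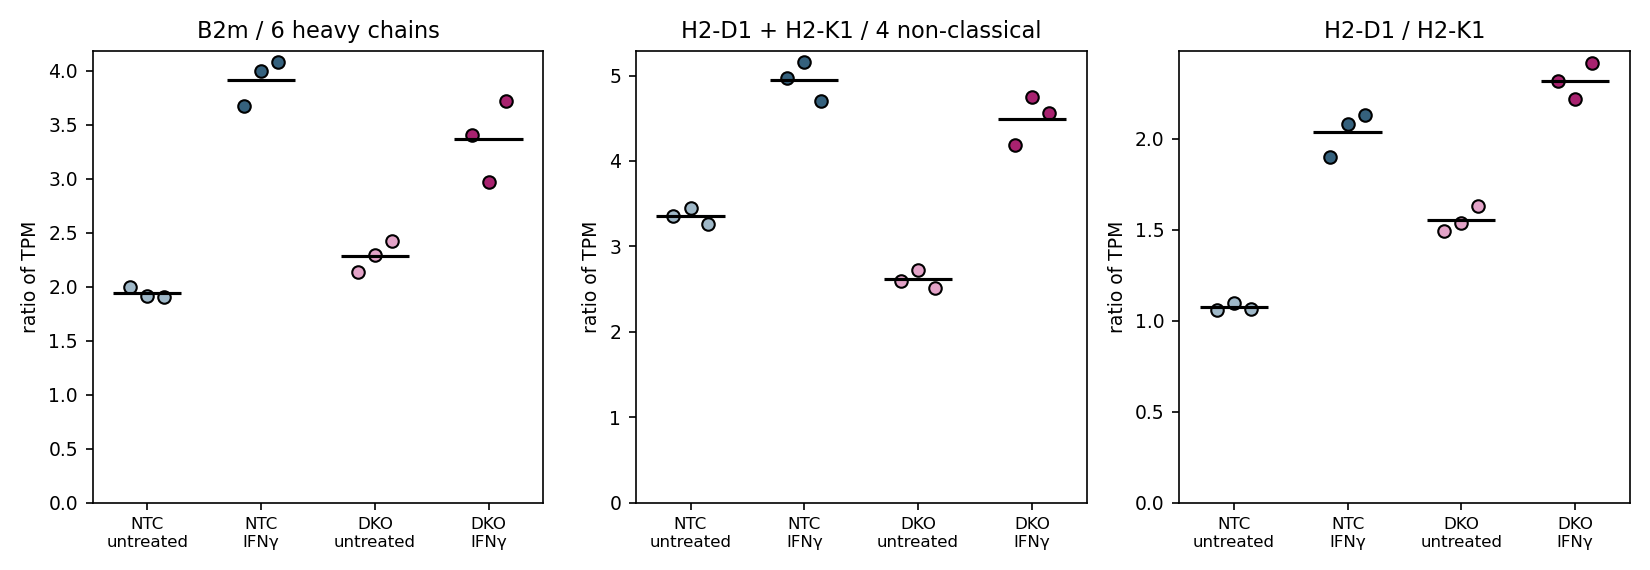
Ratios of TPM in the 12 libraries: classical to non-classical heavy chains, *B2m* to summed heavy chains, and *H2-D1* to *H2-K1* (1 panel each; y axis, ratio; points are single libraries, bars are means of 3 libraries). All 3 ratios are higher with IFNγ in both genotypes, and the treated DKO and NTC libraries overlap for classical to non-classical and for *B2m* to heavy chains.

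Of 9 tested genes listed for class I assembly and peptide loading, 7 were higher with IFNγ in NTC and 4 in DKO cells, where 7.31% and 0.677% of all genes were called higher. Their median log2 differences were 0.55 and 0.55, against 0.019 and 0.0081 over all genes tested. The peptide transporter subunit *Tap1* rose by 2.66 in NTC and 1.79 in DKO cells, and the trimming enzyme *Erap1* by 2.42 and 1.83. *Tap1* stood at only 0.70 to 0.81 TPM in untreated NTC and 0.94 to 1.37 TPM in untreated DKO libraries, where log2(TPM + 1) understates a rise. Tapasin, the product of *Tapbp*, bridges the transporter and the heavy chain, and its gene rose by 2.01 and 1.90. *Tap2*, the partner of *Tap1*, rose by 0.97 and 0.83. None of the 9 passed the test of a difference in response, *Tap1* coming nearest (-0.87, limma adjusted p = 0.0709). Without IFNγ, 5 of the 9 were above their NTC level in DKO cells and none below, where 36.4% of all genes were called in either direction, namely *Tapbp* (0.38), *Tap1* (0.30), *Erap1* (0.32), the chaperone gene *Hspa5* (0.35) and calreticulin's *Calr* (0.18). With IFNγ 2 were higher (*Hspa5* 0.43 and *Tapbp* 0.27) and 3 lower (*Tap1* -0.57, *Erap1* -0.28 and *Pdia3* -0.24), beside 43.3% of all genes called in either direction. *Hspa5*, *Calr* and *Pdia3* are named after their values were seen.

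Of 14 tested regulators of class I transcription, 3 were called higher with IFNγ and 11 were not called in each genotype, beside 7.31% and 0.677% of all genes. The median log2 differences of the 14 were -0.045 in NTC and -0.033 in DKO cells, against 0.019 and 0.0081 over all genes tested. *Nlrc5*, the class I transactivator (2.31 in NTC, 2.01 in DKO cells), and *Irf1* (1.14 and 0.93) were among those called higher in both genotypes. Neither passed the test of a difference in response between genotypes, with limma adjusted p of 0.445 and 0.451. *Irf1* was higher in DKO cells, by 0.53 without and 0.33 with IFNγ, whereas *Nlrc5* was at 0.08 without (adjusted p = 0.566) and -0.22 with it (adjusted p = 0.108). Untreated libraries held at most 0.147 TPM (NTC) and 0.188 TPM (DKO) of *Nlrc5*, where log2(TPM + 1) understates a rise. In DKO against NTC cells 1 of the 14 regulators was higher and 3 lower without IFNγ, beside 36.4% of all genes called in either direction. With IFNγ 1 was higher and 3 lower, beside 43.3%. Of 34 other class I and class I-like genes, 27 were listed, 11 of them at 0 throughout, and 8 were tested. With IFNγ 1 of the 8 was called higher in NTC cells (*Azgp1*, 0.57, adjusted p = 0.0441) and none in DKO cells, beside the 7.31% and 0.677% of all genes. In DKO against NTC cells 3 of the 8 were higher and 2 lower without IFNγ, beside 36.4% of all genes called in either direction. With IFNγ 1 was higher (*Fcgrt*, 0.75) and 3 lower (*Hfe* -0.80, *H2-Q6* -0.36 and *Mr1* -0.24), beside 43.3% of all genes. These 4 genes are named after their values were seen. Of 11 class II genes, 5 were at 0 throughout and the 2 tested were not called for IFNγ in either genotype.

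Over the 12 libraries the pattern of *B2m*, by Pearson's r of log2(TPM + 1), was close to those of *Itm2b* (0.989), *Psmb9* (0.984), *Psmb8* (0.982) and *Ube2l6* (0.981) outside the members, and that of the summed heavy chains to those of *Ifi27l1* (0.984), *Ap2b1* (0.979), *Ube2l6* (0.977) and *Psmb9* (0.975). Pearson's r takes no account of the size of a change. *Ap2b1* averaged 82.5 TPM in untreated and 92.8 TPM in treated NTC cells, and *Itm2b* 134 and 185 TPM. Among the members *B2m* was nearest to *H2-D1* (0.996) and furthest from *H2-T23* (0.791), and *H2-K1* was nearest to *H2-Q4* (0.955). These values describe 12 libraries that share 4 condition means, and no test was run on them.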

How the data were processed

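Poly(A)-selected, unstranded paired-end libraries were read from 12 samples, 3 per condition. The authors deposited TPM, in a table whose name speaks of counts but whose values have decimals. According to the submitters' processing notes and the study's methods, RSEM 1.2.4, modified to call Bowtie, was run on a merged annotation, with unaligned reads passed to TopHat 20.8b against mm10 (GRCm38). Whether libraries were scaled to each other is not given in the sources used here. TPM keep no depth, so no counting interval is given, and multi-mapping among class I genes can move reads between members.

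A gene was tested if 3 or more libraries had 1 TPM or more (11663 of 23022). Values were taken as log2(TPM + 1), and a fold change on that scale understates the change of low genes. One mean per condition was fitted to all 12 libraries with limma 3.58.1 in R 4.3.3, with a prior variance that follows the mean, Benjamini-Hochberg adjusted p under 0.05 over all genes tested as the threshold, and 95% intervals for single genes. The 5 comparisons share condition groups: each condition enters 3 of them. Ratios were formed per library from untransformed TPM and were not tested. Promoter windows came from RefSeq (GRCm38.p6), gene positions and 50-base transcript windows from GENCODE M21, and tables and figures from Python 3.11.15 with numpy 2.4.6, pandas 2.3.3 and matplotlib 3.10.9. Simulated data with known differences were used to test the fitting script. Named genes are the 7 members, up to 4 genes a list with the largest called IFNγ response in NTC cells, genes overlapping a member, and the 5 genes outside the members with the highest Pearson's r to *B2m* and to the summed heavy chains. A gene among the regulators and nearest patterns is not reported here. The members and lists were chosen with earlier results of these data known. Alternatives were a pseudocount of 0.1, no filter, a replicate block, other scalings, a fit after taking out trends with GC content and length (11563 genes, 99.1%, had both), no mean-variance trend, only the libraries of a comparison, and each library left out.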

Additional observations from a re-analysis of the deposited data

Results flagged for a closer look

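The IFNγ response of *B2m* was set apart because it differed between the genotypes by the interaction test of limma: the DKO response minus the NTC response was -0.63 on the log2 scale (95% interval -0.81 to -0.45, adjusted p = 0.0256, n = 3 libraries per condition). It was the only member to do so, and the call was lost in 9 of 19 alternatives, 8 of them among the 12 fits that left out 1 library. All 3 treated libraries lay above all 3 untreated ones in each genotype, at 1865 ± 65.6 TPM in NTC and 1029 ± 85.9 TPM in DKO cells (SD), from 311 ± 15.3 and 265 ± 10.299 TPM.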

How the results depend on the processing

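No member result changed sign in any of the alternatives, and each call for IFNγ within a genotype, and each for DKO against NTC without IFNγ, was kept in all 20, while *H2-T23* without IFNγ was also called with libraries scaled to the same total (0.29, adjusted p = 0.0302). The count of members with a different response was 1, became 2 with a GC content and length trend removed (*H2-D1* -0.30, adjusted p = 0.0248, beside *B2m* -0.48), 0 without the mean-variance trend in limma (*B2m* adjusted p = 0.0666), and ran from 0 to 1 with each library left out. With every listed H2 heavy chain in the sums, classical to non-classical was higher with IFNγ by 0.65 in NTC and 0.90 in DKO cells; with a mean of log2(TPM + 1) over genes in place of the sum it was higher by 0.83 and 0.94, with a difference between them of 0.10 and -0.28 for DKO against NTC with IFNγ. With the mean of logs, *B2m* to heavy chains was higher by 1.56 in NTC and 1.11 in DKO cells and differed between DKO and NTC by 0.091 without and -0.36 with IFNγ. The cause of these moves was not tested. Over all genes, the 1411 calls for IFNγ in NTC cells became 897 without the filter, 467 after correction for GC content and length and 737 without the mean-variance trend, and 4 genes differed in response, from 0 to 10 across the alternatives. The labels do not say whether replicate numbers pair the samples, and the values showed no sign of it. Deviations of same-numbered libraries correlated by -0.18 to 0.18 over 18 pairs, and those of other-numbered libraries by -0.22 to 0.21 over 36 pairs. These ranges do not establish that the samples were unpaired. With a replicate block, calls over all genes went to 1118 (IFNγ in NTC cells), 75 (in DKO cells), 2 (difference), 4063 (DKO against NTC without IFNγ) and 4899 (with it), the *B2m* difference had adjusted p = 0.0407, and *H2-T23* with IFNγ passed no longer (adjusted p = 0.0507).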

Other observations

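*H2-M3* entered the tests only when the filter on low values was dropped, which gave 16123 genes. DKO against NTC without IFNγ was then -0.28 on the log2(TPM + 1) scale (limma adjusted p = 0.0101), with all 3 DKO libraries at 0 and the NTC libraries at 0.158 to 0.323 TPM, and none of its other comparisons passed, with adjusted p from 0.248 to 0.876. In that fit 4097 of the 16123 genes were called in either direction for DKO against NTC without IFNγ. The proteasome subunit gene *Psmb8*, whose product helps to cut the peptides that class I molecules carry, had a listed value of 0 in the 6 untreated libraries, and averaged 1.29 TPM in treated NTC and 0.684 TPM in treated DKO cells. *Psmb9*, of the same immunoproteasome, averaged 1.12 TPM in untreated and 11.5 TPM in treated NTC cells, and 1.05 and 4.65 TPM in DKO cells.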
